A study of Mus musculus with 21 samples.

Results

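Sequencing of small RNA from left ventricular myocardium of C57BL/6J mice compared 6 libraries from mice that had transverse aortic constriction and then PF-04449613, which inhibits PDE9A (TAC+PDE9A-I), with 5 libraries from sham-operated mice (Sham). These 11 libraries were chosen by their labels from the 21 of the series. Transverse aortic constriction (TAC) narrows the aorta, so that the left ventricle pumps against a raised pressure. Drug treatment ran for 4 weeks and began 1 week after surgery. The labels do not give the age or the sex of the mice, and they name no drug for Sham. Sham mice had neither the constriction nor the inhibitor, so the comparison shows which microRNAs were away from the Sham level under both together. The effect of the constriction and that of the drug cannot be told apart in it. The 5 libraries of mice with TAC and no drug (TAC) are given beside the results for that reason.

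MicroRNAs are short RNAs cut from hairpin precursors, and each arm of a hairpin can yield a mature microRNA. A mature microRNA guides repression of messenger RNAs that pair with its seed, bases 2 to 8 from its 5′ end. PDE9A breaks down cyclic GMP, a second messenger that restrains hypertrophic growth of heart muscle. In a heart under pressure load, the fetal-type microRNA miR-208b-3p, the stromal miR-199 and miR-214 and the growth- and fibrosis-linked miR-21a-5p are known to rise. Several microRNAs of mature heart muscle are known to fall.

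The mature sequences below are those on which the results turn, with the seed in capitals, from RefSeq on GRCm38.p6. The first pair shares a seed, so the member that was away from the Sham level (miR-208b-3p) and the member not called (miR-208a-3p) read the same seed matches.
miR-208b-3p: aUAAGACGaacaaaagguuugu
miR-208a-3p: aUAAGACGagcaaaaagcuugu
miR-501-3p: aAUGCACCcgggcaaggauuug
miR-214-3p: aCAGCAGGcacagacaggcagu
miR-199a-5p: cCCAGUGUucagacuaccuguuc
miR-21a-5p: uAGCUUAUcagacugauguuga
miR-99b-5p: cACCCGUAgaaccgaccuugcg
miR-100-5p: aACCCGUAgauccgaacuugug
miR-133b-3p: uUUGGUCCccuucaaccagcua
miR-126b-3p: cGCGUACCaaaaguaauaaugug
miR-378b: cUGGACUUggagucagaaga
In the same table and build (GRCm38.p6), Mir208b lies at chr14:54975700-54975776 on the minus strand, in an intron of Myh7 (the slow, fetal-type myosin heavy chain), and Mir208a at chr14:54949060-54949142, in an intron of Myh6. Mir501 lies at chrX:7241243-7241351 in an intron of Clcn5. Mir214 (chr1:162223368-162223477) and Mir199a-2 (chr1:162217814-162217923) both lie in exons of the noncoding transcript Dnm3os. Mir21a lies at chr11:86584067-86584158, in an exon of Vmp1. Host genes are those of GENCODE M21 on the same strand. Of the 54 microRNAs named by rule or as calls, 45 were matched by name to a sequence. Other microRNAs set beside them are not in that count.

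Total counts ran from 3766517 to 7490436 in Sham and from 4785164 to 7532591 in 5 of the TAC+PDE9A-I libraries. The library TAC+PDE9A-I 5 held 1546318 counts and had a count for 386 microRNAs, and its rank correlation with the other 10 libraries (Spearman 0.791 to 0.845) lay below all of theirs with each other (0.922 to 0.970). The fits were therefore made with and without it. Of the microRNAs named below, 4 were called with it, and for calls made without it the value of the fit of all 11 is given as well. The labels name each library by mouse. The heart muscle microRNAs miR-499-5p, miR-208a-3p, miR-1a-3p and miR-133a-3p had counts in all 11 libraries, whereas the neural miR-124-3p and the skeletal muscle miR-206-3p were at 0 in all 11. Levels are CPM (counts per 1000000) scaled with edgeR's trimmed mean of M-values (TMM). Not all microRNAs known from other tissues were absent. Before TMM scaling, miR-205-5p reached 31.6 CPM and was at 0 in 7 of the 11 libraries. miR-122-5p reached 4.94 CPM and was at 0 in 6, and miR-375-3p had 1.57 to 5.82 CPM in all 11.

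A property of the libraries had to be set out before the results. Some microRNAs are encoded on the strand opposite an abundant one and are its reverse complement over most of their length. In the sequences below, capitals mark the complementary stretch, which is 20 bases for the first pair and 19 for the second. They are shown because the count ratio within each pair divided the libraries.
miR-24-3p: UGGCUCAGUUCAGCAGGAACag
miR-3074-5p: GUUCCUGCUGAACUGAGCCAgu
miR-126a-3p: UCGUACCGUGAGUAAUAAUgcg
miR-126b-5p: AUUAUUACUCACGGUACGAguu
Per 1000 counts of miR-126a-5p, the 5 Sham libraries held 15.72 to 16.15 counts of miR-126b-3p, and TAC 1 to 4 held 15.65 to 16.37. TAC 5, a library labelled as having no drug, held 7.276. TAC+PDE9A-I libraries 1, 2, 3, 4 and 6 held 7.407 to 7.514, and TAC+PDE9A-I 5 held 0 against 1570 counts of miR-126a-5p. Apart from that 0, the ratio took 2 separate ranges in these groups, and TAC 5 lay with the drug-treated libraries.

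The same division of libraries appeared in 7 other ratios. For miR-1b-5p per 1000 of miR-1a-3p, which lies opposite it, the values were 19.67 to 21.53 in Sham, 19.48 to 23.1 in TAC 1 to 4, 8.913 in TAC 5 and 8.213 to 9.546 in TAC+PDE9A-I without replicate 5, which was at 0. For miR-3074-5p per 1000 of miR-24-3p they were 23.77 to 35.29, 26.46 to 32.63, 14.46 and 13.11 to 18.18 in Sham, TAC 1 to 4, TAC 5 and all 6 drug-treated libraries. For miR-126b-5p per 1000 of miR-126a-3p they were 7.206 to 9.18, 6.027 to 7.878, 4.602 and 3.905 to 5.167 in the same order. Both arms on the opposite strand were therefore at a lower ratio in TAC 5 and in every drug-treated library.

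The hairpins of miR-486a and miR-486b also lie opposite each other. The 3p arm of miR-486b stood at 4.548 to 5.017 counts per 1000 of its 5p arm in Sham, 4.406 to 4.854 in TAC 1 to 4, 1.949 in TAC 5 and 1.883 to 2.203 in the drug-treated libraries. The 3p arm of miR-486a stood at 47.53 to 55.32, 43.95 to 49.37, 27.25 and 27.91 to 32.68 per 1000 of its 5p arm. A near-identical relative gave the same picture: miR-133b-3p, which differs from miR-133a-3p at its 3′ end, stood at 21.66 to 22.08, 21.61 to 23.34, 12.58 and 11.76 to 13.22 counts per 1000 of miR-133a-3p. For miR-378b per 1000 of miR-378a-3p the values were 15.82 to 17.9, 17.03 to 18, 12.9 and 8.319 to 12.83. TAC+PDE9A-I 5, the shallowest of the 11 libraries, had ratios of miR-486b-3p and miR-133b-3p close to those of the other drug-treated libraries (1.919 and 11.76), but for miR-378b it held 8.319 against 11.25 to 12.83.

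The low ratios were not limited to TAC 5 and TAC+PDE9A-I. The 5 libraries of TAC mice given a PDE5A inhibitor (TAC+PDE5A-I) are used elsewhere only in the alternative fits of all groups together. In these 5 the ratio was 12.68 to 14.07 for miR-133b-3p, 1.454 to 2.246 for miR-486b-3p, 26.82 to 32.38 for miR-486a-3p and 6.661 to 12.13 for miR-378b. It was 12.6 to 20.81 for miR-3074-5p, 0 to 8.507 for miR-126b-3p and 0 to 9.095 for miR-1b-5p. All 5 of these libraries thus lay below Sham and TAC 1 to 4 in each of these ratios. For miR-126b-5p they were at 0 to 6.617, which overlapped TAC 1 to 4.

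**Figure D1:**
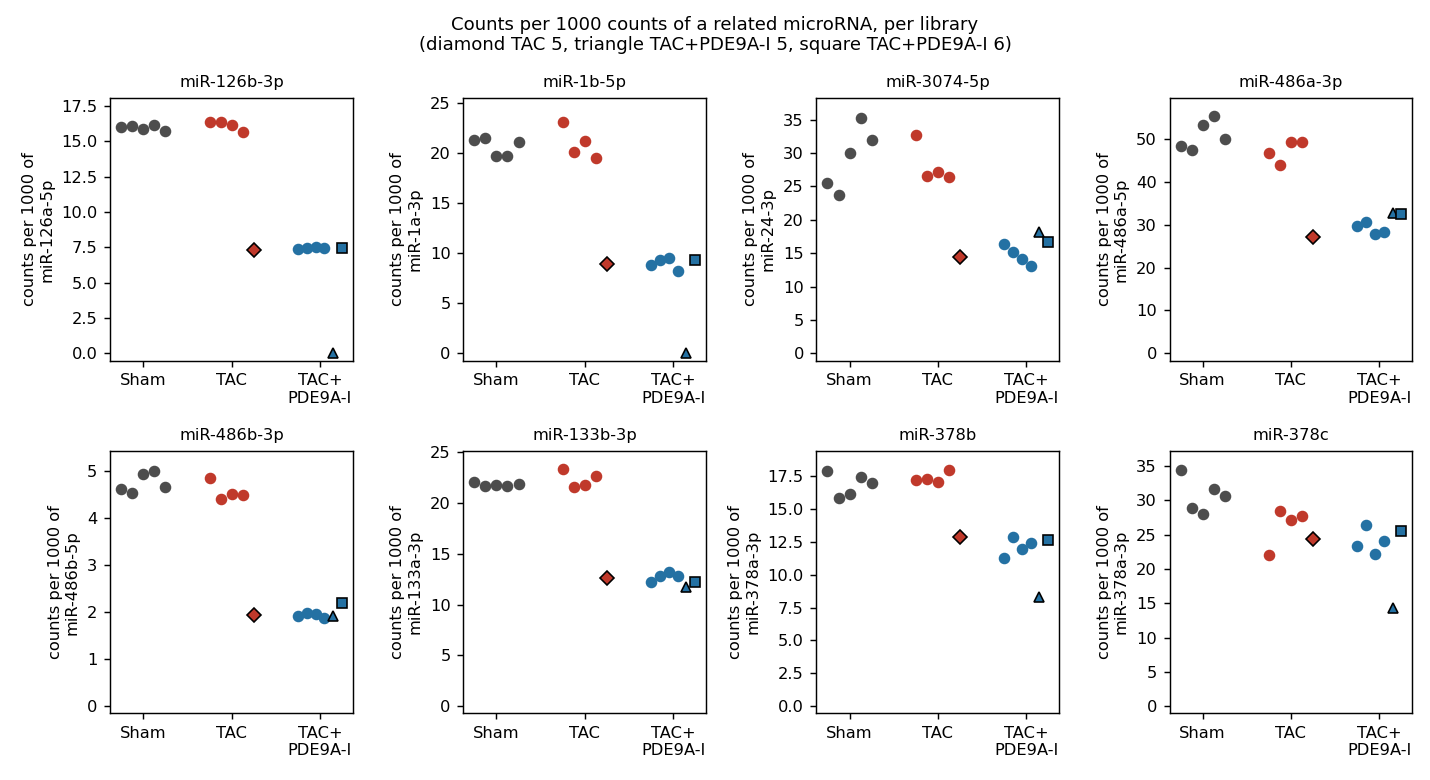
Counts of 8 microRNAs per 1000 counts of a related microRNA (vertical axis, from 0) in each Sham, TAC and TAC+PDE9A-I library, 1 symbol per library. For all but miR-378c, TAC 5 (diamond, 7.276 for miR-126b-3p) lies with the TAC+PDE9A-I libraries and away from TAC 1 to 4 and Sham.

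In each of the 8 ratios all TAC+PDE9A-I libraries lay below all Sham libraries. TAC+PDE9A-I 5 was lower than the others of its group for miR-126b-3p, miR-1b-5p, miR-133b-3p and miR-378b. This division and the groups compared cannot be told apart. The labels give no batch, run or date that matches it. The microRNAs and partners shown were chosen after their values were seen, and they do not stand for all microRNAs encoded opposite another. Without TAC+PDE9A-I 5, 30 tested microRNAs were matched to a hairpin that overlaps another on the other strand. Of these 30, 16 had a negative log2 fold change against Sham (median -0.03, against 0.06 over all 510 tested). At an adjusted p under 0.05 (edgeR), 3 were lower and 2 higher, against 2.35% and 5.1% over all tested. The results they touch are chiefly the falls, and these are marked as such below.

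With all 11 libraries, 4 microRNAs of 514 tested were away from the Sham level at an adjusted p under 0.05 (edgeR quasi-likelihood test, Benjamini-Hochberg adjustment). Higher were 2, which is 0.389% of those tested, and lower were 2, which is also 0.389%. miR-501-3p and miR-7689-3p were higher, and miR-378b and miR-133b-3p were lower. miR-7689-3p had no counts in Sham and passed the filter on low counts only through the drug-treated libraries. Without TAC+PDE9A-I 5, 26 of 510 microRNAs were higher (5.1%) and 12 were lower (2.35%). All 38 had the same sign with TAC+PDE9A-I 5 in the fit, and 3 were called in both fits: miR-501-3p, miR-378b and miR-133b-3p. The common biological coefficient of variation was 0.554 with that library and 0.413 without it.

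The number of calls depended on single libraries. In the fit of 11, leaving out TAC+PDE9A-I 6 gave 19 higher and 7 lower, and leaving out any of the other 9 libraries (all but replicates 5 and 6 of TAC+PDE9A-I) gave none higher and at most 1 lower. In the fit without TAC+PDE9A-I 5, leaving out a further library gave 2 to 67 higher and 6 to 25 lower, with the top counts when TAC+PDE9A-I 6 was left out. Of the 38, 8 were called in all 10 of these fits: miR-208b-3p and miR-501-3p among the higher, and miR-486b-3p, miR-133b-3p, miR-126b-3p, miR-378b, miR-486a-3p and miR-1b-5p among the lower. Each of these 6 lower microRNAs is one whose ratio divided the libraries.

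**Figure D2:**
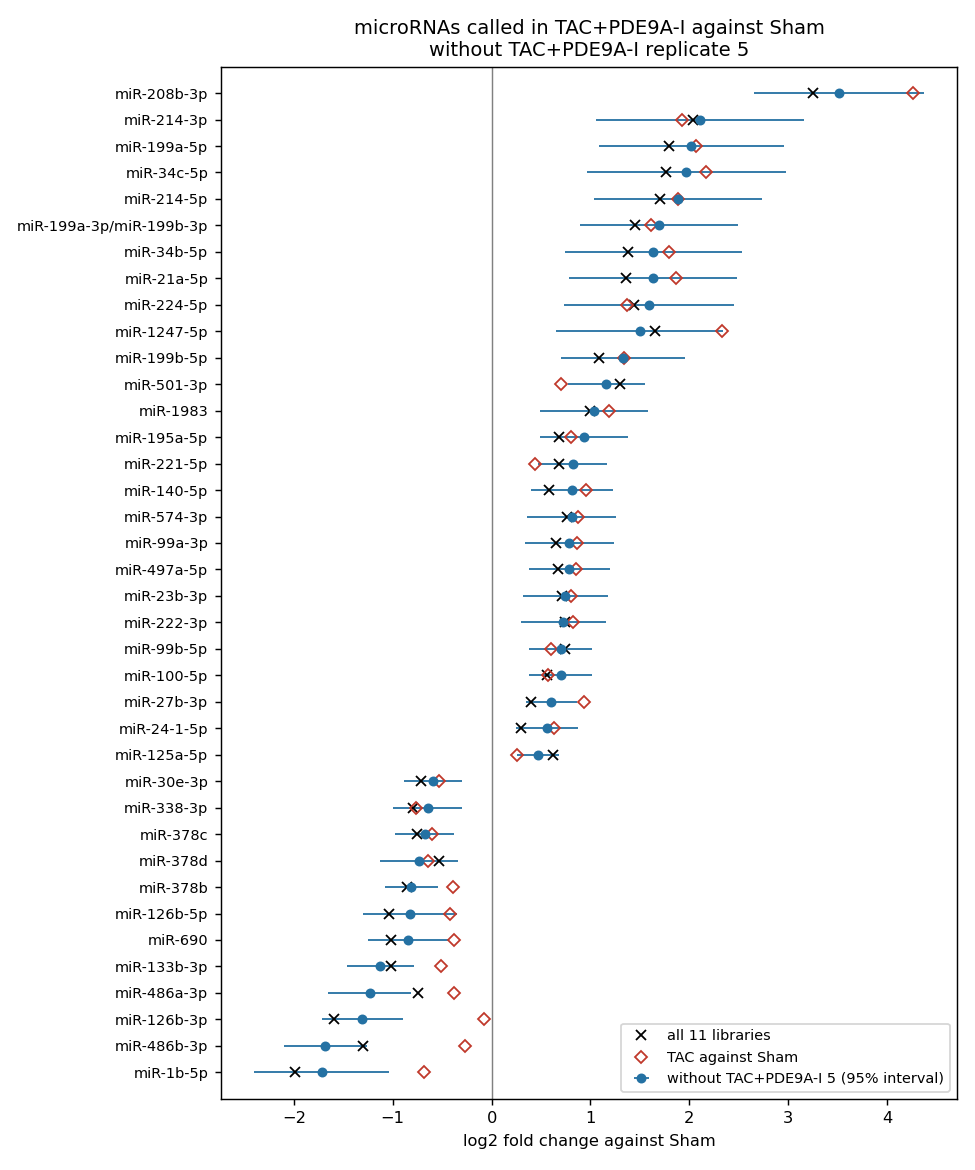
Log2 fold change against Sham (horizontal axis) for the 38 microRNAs called without TAC+PDE9A-I 5, as circles with 95% intervals, with the value from all 11 libraries as crosses and that of TAC against Sham as open diamonds. The circle and the cross have the same sign for all 38, and for miR-126b-3p the diamond lies near 0 (-0.08).

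miR-208b-3p rose most in the fit without TAC+PDE9A-I 5. It was at 160, 134, 108, 153 and 154 CPM in Sham and at 1862, 1180, 1534, 2960 and 538 CPM in TAC+PDE9A-I 1, 2, 3, 4 and 6. TAC+PDE9A-I 5 was at 70.7 CPM. Every drug-treated library but that one was above every Sham library. The log2 fold change was 3.51 ± 0.39 (SE, adjusted p = 0.000854, edgeR), a fold of 11.4, with a 95% interval of 2.66 to 4.37. With TAC+PDE9A-I 5 it was 3.25 ± 0.70 (adjusted p = 0.0588, edgeR) and missed the threshold. In untreated TAC the level was 1471 to 4236 CPM, 4.26 ± 0.32 on the log2 scale above Sham (adjusted p = 1.16e-05, edgeR).

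The other arm of the hairpin, miR-208b-5p, was at 0 in all 5 Sham libraries and in TAC+PDE9A-I 5, and at 1.31 to 2.62 CPM in the other 5 drug-treated libraries. If a 0 stands for at most 3 counts per library, its mean over the 6 was at least 2.78-fold higher. It did not pass the filter on low counts. The cardiac relatives were not called: miR-208a-3p, with the same seed, was at 445 to 987 CPM in Sham and 305 to 993 CPM in the 5 drug-treated libraries (-0.46 ± 0.34, adjusted p = 0.466, edgeR). miR-499-5p, encoded in the myosin gene Myh7b, had a seed that ends in another base (UAAGACU in place of UAAGACG) and gave -0.45 ± 0.28 (adjusted p = 0.367, edgeR).

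miR-501-3p was higher in every drug-treated library than in any Sham library. Its levels were 11.5, 13.7, 12.3, 11.7 and 14.0 CPM in Sham and 24.3, 27.0, 31.4, 38.2, 48.6 and 19.1 CPM in TAC+PDE9A-I 1 to 6, from 46 to 77 counts in Sham and 79 to 321 in the drug group. The log2 fold change was 1.29 ± 0.23 with all 11 libraries (adjusted p = 0.0381, edgeR) and 1.16 ± 0.17 without TAC+PDE9A-I 5 (adjusted p = 0.00379, edgeR). TAC stood between, at 19.3 to 23.5 CPM (0.70 ± 0.11 above Sham, adjusted p = 0.00138, edgeR). TAC 5 was at 22.6 CPM, within the range of TAC 1 to 4. Whether the division of libraries by ratio bears on miR-501-3p was not tested, since the division and the groups cannot be told apart. The direct difference between TAC+PDE9A-I without replicate 5 and TAC was 0.42 (95% interval 0.03 to 0.81, adjusted p = 0.982, edgeR). miR-500-3p, with the same seed AUGCACC, gave 0.58 ± 0.24 and was not called (adjusted p = 0.173, edgeR).

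miR-7689-3p, named after its values were seen, was at 0 in all 5 Sham libraries. TAC+PDE9A-I held 7 to 26 counts, or 1.67 to 4.31 CPM. If a 0 stands for at most 3 counts per library, its mean was at least 5.29-fold higher. A 0 need not stand for so few, since miR-501-5p was at 0 in Sham 1 and at 45 counts in Sham 2. miR-7689-3p passed the filter on low counts only through the drug-treated libraries. Its adjusted p (0.0407, edgeR, 11 libraries) is therefore no independent support. When 1 of the 11 libraries was left out, it was tested in 6 of 11 fits (adjusted p = 0.0512 to 0.114, edgeR) and called in 0. TAC was at 2.56 to 4.78 CPM. Without TAC+PDE9A-I 5 it failed the filter on low counts, and with no filter its adjusted p was 0.0484.

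**Figure D3:**
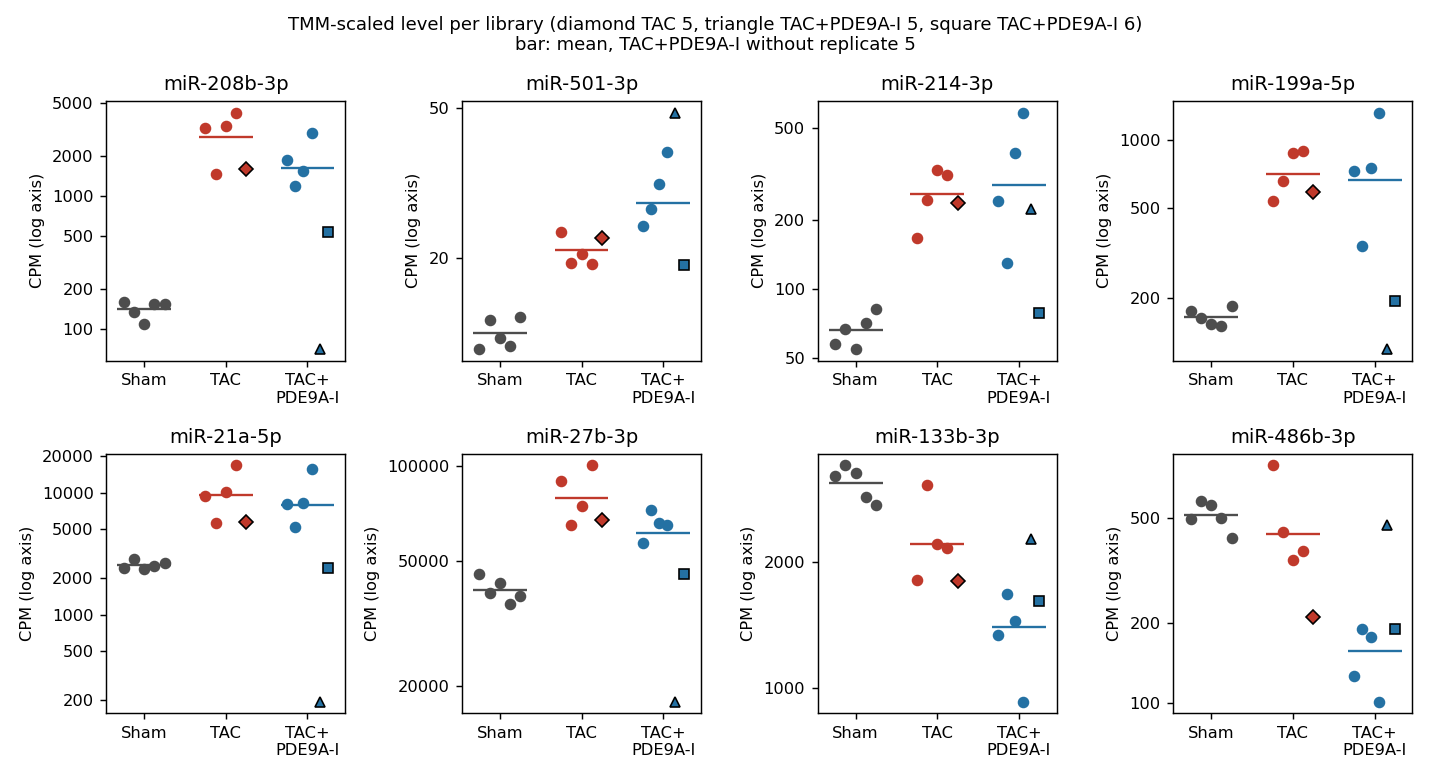
TMM-scaled level in CPM (vertical log axis) of 8 microRNAs in each Sham, TAC and TAC+PDE9A-I library, with bars at the group mean (TAC+PDE9A-I without replicate 5). TAC+PDE9A-I 6 (square) lies below TAC+PDE9A-I 1 to 4 for miR-208b-3p (538 CPM) and miR-21a-5p (2420 CPM), and TAC+PDE9A-I 5 (triangle) lies below Sham for both.

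The stromal miR-199 and miR-214 microRNAs rose together without TAC+PDE9A-I 5: 5 of 5 measured members were called higher, with a median log2 fold change of 1.89 against 0.06 over all 510 tested, of which 5.1% were called higher. With all 11 libraries 0 of 5 were called, with a median of 1.70. miR-214-3p was at 57.5, 67.1, 54.8, 70.8 and 82.0 CPM in Sham and at 241, 129, 389, 586 and 78.8 CPM in the 5 drug-treated libraries (2.11 ± 0.47, adjusted p = 0.0262, edgeR; 2.04 with all 11, adjusted p = 0.0695). TAC+PDE9A-I 5 was at 224 CPM, above Sham, and TAC+PDE9A-I 6, at 78.8, was inside the Sham range. Its other arm, miR-214-5p, was at 18 to 22.8 CPM in Sham and above that in all 6 drug-treated libraries, at 24.6 to 135 CPM (median 58.0), and had an adjusted p of 0.0202 without TAC+PDE9A-I 5 and 0.0926 with it (edgeR).

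miR-199a-5p was at 175, 163, 154, 152 and 186 CPM in Sham and at 730, 343, 754, 1322 and 196 CPM in the 5 drug-treated libraries (2.02 ± 0.42, adjusted p = 0.0202, edgeR). With all 11 it gave 1.79 (adjusted p = 0.139, edgeR). TAC+PDE9A-I 5, at 120 CPM, was below every Sham library. miR-199a-3p/miR-199b-3p, the joined name of arms with one sequence, gave 1.70 ± 0.36, and miR-199b-5p gave 1.33 ± 0.28. Both were called (adjusted p = 0.0202 for each, edgeR), and with all 11 libraries they gave 1.45 and 1.08 (adjusted p = 0.232 and 0.410). Untreated TAC gave 1.93 for miR-214-3p, 2.07 for miR-199a-5p and 1.61 for miR-199a-3p/miR-199b-3p, against the same Sham libraries. The summed level of the 5 was 2050 to 2367 CPM in Sham, 2643 to 14486 CPM in the 5 drug-treated libraries and 1085 CPM in TAC+PDE9A-I 5. In tissue of mixed cells, more stromal cells and more of these RNAs per cell cannot be told apart.

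miR-21a-5p, linked to cardiac fibroblasts, was at 2388 to 2833 CPM in Sham and at 8100, 5220, 8175, 15632 and 2420 CPM in TAC+PDE9A-I 1, 2, 3, 4 and 6. The log2 fold change was 1.63 ± 0.38 (adjusted p = 0.0297, edgeR). TAC+PDE9A-I 6 lay inside the Sham range and TAC+PDE9A-I 5, at 193 CPM, lay below it. With all 11 libraries the value was 1.36 ± 0.72 (adjusted p = 0.505, edgeR). Its other arm, miR-21a-3p, gave 0.95 ± 0.40 without TAC+PDE9A-I 5 and was not called (adjusted p = 0.173, edgeR).

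Of 28 measured members of a list of microRNAs raised in hypertrophy by textbook accounts, 12 were called higher without TAC+PDE9A-I 5 (5.1% over all tested), none lower and 16 in neither direction. Their median was 0.59. With all 11 libraries 0 of 28 were called, with a median of 0.63 against 0.03 over all 514. Beside the microRNAs above, the 12 held miR-27b-3p, miR-195a-5p, miR-34b-5p, miR-34c-5p and miR-222-3p. The list also holds the miR-199 and miR-214 entries already counted above. Like the other lists, it was drawn up with earlier results of these data known, so the shares called in the lists are no independent support. miR-27b-3p, an abundant microRNA, was at 36530 to 45327 CPM in Sham and at 45551 to 72405 CPM in the 5 drug-treated libraries, without overlap (0.61 ± 0.11, adjusted p = 0.0168, edgeR). TAC+PDE9A-I 5 was at 17898 CPM, and with all 11 libraries the value was 0.40 (adjusted p = 0.702, edgeR).

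Of the miR-34 family, which acts downstream of the tumour suppressor p53, 2 of 6 measured members were called higher without TAC+PDE9A-I 5, against 5.1% over all tested. miR-34c-5p was at 28.8 to 46.5 CPM in Sham and at 169, 70.0, 224, 256 and 39.1 CPM in the 5 drug-treated libraries (1.97 ± 0.46, adjusted p = 0.0287, edgeR). miR-34b-5p gave 1.64 ± 0.40 at a mean of 7.99 CPM. In the fit of all 11 they gave 1.77 and 1.38 (adjusted p = 0.135 and 0.449, edgeR). miR-34a-5p, with the same seed GGCAGUG as miR-34b-5p, was at 122 to 205 CPM in Sham and 121 to 184 CPM in the 5, with a value of -0.09 and a 95% interval of -0.46 to 0.28.

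Some of the other higher microRNAs share a seed with microRNAs that were not called. With the seed ACCCGUA, miR-99b-5p gave 0.70 ± 0.14 and miR-100-5p 0.70 ± 0.15 (adjusted p = 0.0202 for each, edgeR), and miR-99a-5p gave 0.39 ± 0.12 (adjusted p = 0.0651, edgeR). miR-99b-5p was at 1690 to 2285 CPM in Sham and at 2398 to 4020 CPM in all 6 drug-treated libraries (median 3410), without overlap. miR-99b-5p gave 0.74 (adjusted p = 0.0815, edgeR) and miR-100-5p 0.56 (adjusted p = 0.266, edgeR) with all 11. With the seed AGCAGCA, of the miR-15/16 family that restrains cell division, miR-195a-5p (0.94 ± 0.20, adjusted p = 0.0202, edgeR) and miR-497a-5p (0.78 ± 0.18, adjusted p = 0.0302, edgeR) were called, miR-16-5p gave 0.29 ± 0.09 (adjusted p = 0.0827, edgeR) and miR-15a-5p gave 0.02 (adjusted p = 0.896, edgeR). miR-195a-5p was at 341 to 469 CPM in Sham and 467 to 1087 CPM in the 5 drug-treated libraries. With all 11 it gave 0.68 (adjusted p = 0.707, edgeR), miR-497a-5p gave 0.67 (adjusted p = 0.159, edgeR) and miR-15a-5p -0.22. With the seed CCCUGAG, miR-125a-5p gave 0.47 ± 0.10 (adjusted p = 0.0202, edgeR) and miR-125b-5p gave 0.50 ± 0.16 (adjusted p = 0.0703, edgeR), and miR-351-5p 0.07 (adjusted p = 0.833, edgeR). With all 11, miR-125a-5p gave 0.62 (adjusted p = 0.146, edgeR).

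The remaining higher calls without TAC+PDE9A-I 5 were miR-221-5p, miR-222-3p, miR-140-5p, miR-1983, miR-224-5p, miR-574-3p, miR-24-1-5p, miR-1247-5p, miR-99a-3p and miR-23b-3p, at log2 fold changes from 0.56 (miR-24-1-5p) to 1.59 (miR-224-5p). Their values with all 11 ranged from 0.30 (miR-24-1-5p) to 1.65 (miR-1247-5p). Of these, miR-1983, miR-224-5p, miR-574-3p and miR-23b-3p lay above every Sham library in all 6 drug-treated libraries. Over all 510 tested, 15 (2.94%) lay above every Sham library in all 5, and 18 (3.53%) lay below. With TAC+PDE9A-I 5 these were 9 (1.75%) and 12 (2.33%) of 514.

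For the 26 higher microRNAs, TAC 5 lay between the lowest and the highest of TAC 1 to 4 in 17, above them in 3 and below them in 6. For the 12 lower microRNAs, TAC 5 lay below TAC 1 to 4 in 8, between in 3 and above in 1. These positions were counted for the called microRNAs only, so there is no share over all tested to set beside them. The lower microRNAs include those whose ratios were chosen after their values were seen, so their positions describe the division again. Whether the division bears on the higher microRNAs was not tested.

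miR-486b-3p, from a hairpin at the ankyrin gene Ank1 for which no locus or strand was matched here, had the smallest p of the lower microRNAs. It was at 495, 579, 559, 499 and 420 CPM in Sham and at 127, 190, 178, 101 and 191 CPM in the 5 drug-treated libraries (-1.68 ± 0.19, adjusted p = 0.000854, edgeR). TAC+PDE9A-I 5 was at 469 CPM, inside the Sham range, and with all 11 libraries the value was -1.30 (adjusted p = 0.0926, edgeR). The 5p entry, miR-486b-5p, held far more counts than miR-486b-3p, and whether its reads came from this hairpin alone is not known. It gave -0.43 ± 0.16 and was not called (adjusted p = 0.127, edgeR). miR-486a-3p gave -1.23 ± 0.19 (adjusted p = 0.00398, edgeR; -0.75 with all 11, adjusted p = 0.496), and its 5p arm -0.47 ± 0.17 (adjusted p = 0.110, edgeR). The ratios of both 3p arms to their 5p arms divided the libraries, and for both hairpins the 3p arm was lower in TAC 5 than in TAC 1 to 4 (212 against 348 to 788 CPM for miR-486b-3p).

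miR-133b-3p, a muscle microRNA, was at 3205, 3390, 3257, 2850 and 2723 CPM in Sham and at 1341, 1675, 1443, 929, 2260 and 1609 CPM in TAC+PDE9A-I 1 to 6, with no overlap. The log2 fold change was -1.01 ± 0.20 with all 11 libraries (adjusted p = 0.0407, edgeR) and -1.13 ± 0.15 without TAC+PDE9A-I 5 (adjusted p = 0.00324, edgeR). Its relative miR-133a-3p, at 124788 to 156306 CPM in Sham, gave -0.34 ± 0.15 without that library (adjusted p = 0.199, edgeR), and the ratio of the pair divided the libraries. In TAC, miR-133b-3p was called lower than Sham with TAC 5 (-0.51 ± 0.15, adjusted p = 0.0379, edgeR) and not called without it (-0.49 ± 0.16, adjusted p = 0.0644, edgeR).

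miR-378b was at 818, 783, 804, 752 and 699 CPM in Sham and at 377, 533, 377, 383, 406 and 512 CPM in TAC+PDE9A-I 1 to 6, again with no overlap. It gave -0.85 ± 0.14 with all 11 libraries (adjusted p = 0.0293, edgeR) and -0.81 ± 0.12 without TAC+PDE9A-I 5 (adjusted p = 0.00379, edgeR). miR-378a-3p, the abundant member of this family tied to mitochondrial metabolism, gave -0.35 ± 0.10 (adjusted p = 0.0616, edgeR). The ratio of miR-378b to it divided the libraries (15.82 to 17.9 in Sham, 8.319 to 12.83 in TAC+PDE9A-I, 12.9 in TAC 5). Its relatives miR-378c (-0.68 ± 0.14, adjusted p = 0.0202, edgeR) and miR-378d (-0.74 ± 0.18, adjusted p = 0.0332, edgeR) were called without TAC+PDE9A-I 5 and not with it (-0.75 and -0.53, adjusted p = 0.0510 and 0.449, edgeR).

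miR-126b-3p was at 516, 420, 428, 398 and 360 CPM in Sham and at 141, 256, 136, 133 and 186 CPM in the 5 drug-treated libraries (-1.31 ± 0.19, adjusted p = 0.00345, edgeR), with 0 in TAC+PDE9A-I 5. miR-126b-5p gave -0.83 ± 0.21 (adjusted p = 0.0414, edgeR). In the fit of all 11 they gave -1.59 and -1.03 (adjusted p = 0.419 and 0.150, edgeR). The endothelial microRNAs opposite them were not called: miR-126a-5p gave -0.21 ± 0.18 (adjusted p = 0.549, edgeR) and miR-126a-3p -0.04 ± 0.18 (adjusted p = 0.901, edgeR). miR-1b-5p gave -1.72 ± 0.31 (adjusted p = 0.0124, edgeR), from 97.1 to 167 CPM in Sham and 20.4 to 67.2 CPM in the 5, and -1.99 with all 11 (adjusted p = 0.152, edgeR). The muscle microRNA opposite it, miR-1a-3p, gave -0.53 ± 0.29 (adjusted p = 0.287, edgeR). For all 3 pairs the ratio divided the libraries, with TAC 5 at 7.276, 4.602 and 8.913 per 1000 for miR-126b-3p, miR-126b-5p and miR-1b-5p.

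For 4 lower microRNAs, the position of TAC 5 was not that of the ratios above. miR-378c stood at 28.05 to 34.44 counts per 1000 of miR-378a-3p in Sham, 22.09 to 28.51 in TAC 1 to 4 and 24.32 in TAC 5. The 5 drug-treated libraries held 22.12 to 26.42 and TAC+PDE9A-I 5 held 14.36, so this ratio too was below Sham in every drug-treated library. miR-30e-3p, of a family abundant in heart muscle, was at 1693 to 2126 CPM in Sham and 955 to 1550 CPM in the 5 drug-treated libraries (-0.59 ± 0.13, adjusted p = 0.0262, edgeR). miR-338-3p was at 69.8 to 101 CPM in Sham and 43.5 to 63.7 CPM in the 5 (-0.65 ± 0.16, adjusted p = 0.0332, edgeR). For miR-378c, miR-30e-3p and miR-338-3p, TAC 1 to 4 were also called lower than Sham, at -0.65 (adjusted p = 0.00704, edgeR), -0.65 (adjusted p = 0.0221, edgeR) and -0.84 (adjusted p = 0.00384, edgeR). miR-690 was at 496 to 714 CPM in Sham and 245 to 474 CPM in the 5 (-0.85 ± 0.18, adjusted p = 0.0202, edgeR), and TAC 5, at 578 CPM, lay within the range of TAC 1 to 4. In the fit of all 11, miR-30e-3p, miR-338-3p and miR-690 gave -0.71, -0.80 and -1.01 (adjusted p = 0.0926, 0.123 and 0.0926, edgeR). The remaining lower call, miR-378d, was at 0 in TAC 5 and at 22.8 CPM, above every Sham library, in TAC+PDE9A-I 5.

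The 7 lower calls whose ratio divided the libraries were between -0.59 (miR-1b-5p) and 0.04 (miR-126b-3p) in TAC 1 to 4 against Sham. TAC 5 was set aside there because of its ratios, so these values describe the division again and are no test of it.

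**Figure D4:**
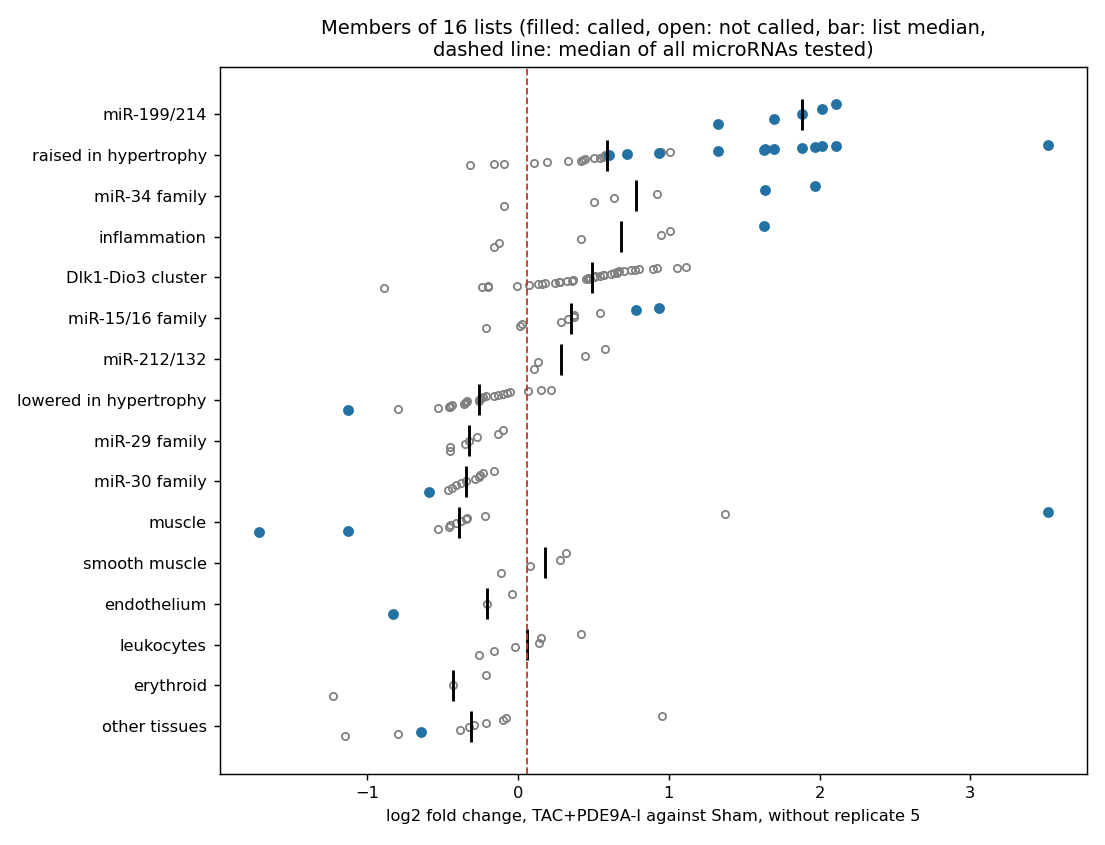
Log2 fold change against Sham without TAC+PDE9A-I 5 (horizontal axis) for the members of 16 lists, filled where called, with the list median as a bar and the median of all 510 microRNAs tested (0.06) as a dashed line. All 5 members of the miR-199 and miR-214 list are filled and lie at 1.33 or more. All 7 measured miR-29 arms and all 11 measured miR-30 arms lie below 0.

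In the list of microRNAs lowered in hypertrophy, 1 of 25 measured members was called lower in each fit, miR-133b-3p, whose ratio to miR-133a-3p divided the libraries (2.35% of all tested were lower without TAC+PDE9A-I 5). The median of the list was -0.26 without TAC+PDE9A-I 5 and -0.35 with it. Of 12 muscle microRNAs measured without TAC+PDE9A-I 5, 1 was called higher (miR-208b-3p) and 2 lower, against 5.1% and 2.35% over all tested, and the median was -0.39. The 2 lower, miR-133b-3p and miR-1b-5p, are both microRNAs whose ratio divided the libraries. The miR-29 and miR-30 lists hold both arms of their hairpins. All 7 measured miR-29 arms were below 0 and 0 were called (median -0.33, lowest -0.45). Only the 3p arms miR-29a-3p, miR-29b-3p and miR-29c-3p have the seed AGCACCA of the miR-29 family, which targets collagen messages. Over all 510 tested, 235 were below 0. All 11 measured miR-30 arms were below 0, with a median of -0.35, and 1 was called. That arm, miR-30e-3p, has the seed UUUCAGU and not the seed GUAAACA of miR-30e-5p. With TAC+PDE9A-I 5 in the fit the medians of these 2 lists were -0.36 and -0.45.

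The list for the imprinted Dlk1-Dio3 cluster, which is known for activity in development, had 0 of 40 measured members called in either fit. Without TAC+PDE9A-I 5, 35 of the 40 were above 0, with a median of 0.49. In TAC against Sham, 17 of 41 measured members of the list were called higher, against 14.8% over all tested, with a median of 0.62. The summed level was 1429 to 1718 CPM in Sham, 2851 to 4430 CPM in TAC and 1487 to 4263 CPM in the 5 drug-treated libraries. The list did not hold miR-1247-5p, which lies in an exon of Dio3os. That microRNA was called higher without TAC+PDE9A-I 5 (1.498, adjusted p = 0.03796, edgeR) and not with it (adjusted p = 0.0856, edgeR). It was also called higher in TAC against Sham (2.330, adjusted p = 3.88e-05, edgeR). The cluster of miR-212 and miR-132, which drives hypertrophic growth of muscle cells, had 0 of 4 called in either fit (median 0.29 without TAC+PDE9A-I 5). miR-132-3p was at 204 to 289 CPM in Sham and at 264 to 536 CPM in all 6 drug-treated libraries (median 342), and gave 0.58 ± 0.20 (adjusted p = 0.0889, edgeR). Of 6 microRNAs of inflammation, 1 was called higher, miR-21a-5p. miR-146b-5p, induced by NF-kB, gave 1.01 ± 0.29 (adjusted p = 0.0616, edgeR).

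Markers of other cell types gave 2 calls without TAC+PDE9A-I 5 and none with it. Called lower were miR-126b-5p of 3 endothelial microRNAs and miR-338-3p of 10 measured for other tissues, against 2.35% over all tested. The ratio of miR-126b-5p to miR-126a-3p divided the libraries (7.206 to 9.18 in Sham, 3.905 to 5.167 in TAC+PDE9A-I), and the other endothelial members, miR-126a-3p and miR-126a-5p, were at -0.04 and -0.21. Of 4 smooth muscle, 6 leukocyte and 3 erythroid microRNAs, 0 were called, with medians of 0.18, 0.06 and -0.43. The leukocyte median turned to -0.07 with upper-quartile scaling. The summed leukocyte level was 2091 to 2514 CPM in Sham and 1797 to 2609 CPM in the 5 drug-treated libraries. The summed erythroid level was 452 to 1325 CPM in Sham and 286 to 1419 CPM in the 5. In TAC+PDE9A-I 5 the smooth muscle sum was 11469 CPM against 69495 to 104242 CPM in Sham, and the endothelial sum 3098 CPM against 30738 to 43035 CPM. The part of these markers in the results was not tested.

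Beside Sham, untreated TAC had 75 of 507 microRNAs higher (14.8%) and 23 lower (4.54%) in a fit of its own. That comparison shares the Sham libraries with the one above, so only each one's values are given. The direct test of TAC+PDE9A-I against TAC called 0 of 521 microRNAs with replicate 5 and 0 of 520 without it (0% each, edgeR). At an unadjusted p under 0.05, 2 were higher (0.384%) and 5 lower (0.96%) with it, and 5 (0.962%) and 13 (2.5%) without it. DESeq2 called 0 higher and 1 lower with it, and 0 and 3 without it. For miR-208b-3p the difference without replicate 5 was -0.78 (95% interval -1.72 to 0.15), for miR-21a-5p -0.27 (-1.25 to 0.72) and for miR-199a-5p -0.09 (-1.01 to 0.83). None of these intervals shows that the groups were alike.

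**Figure D5:**
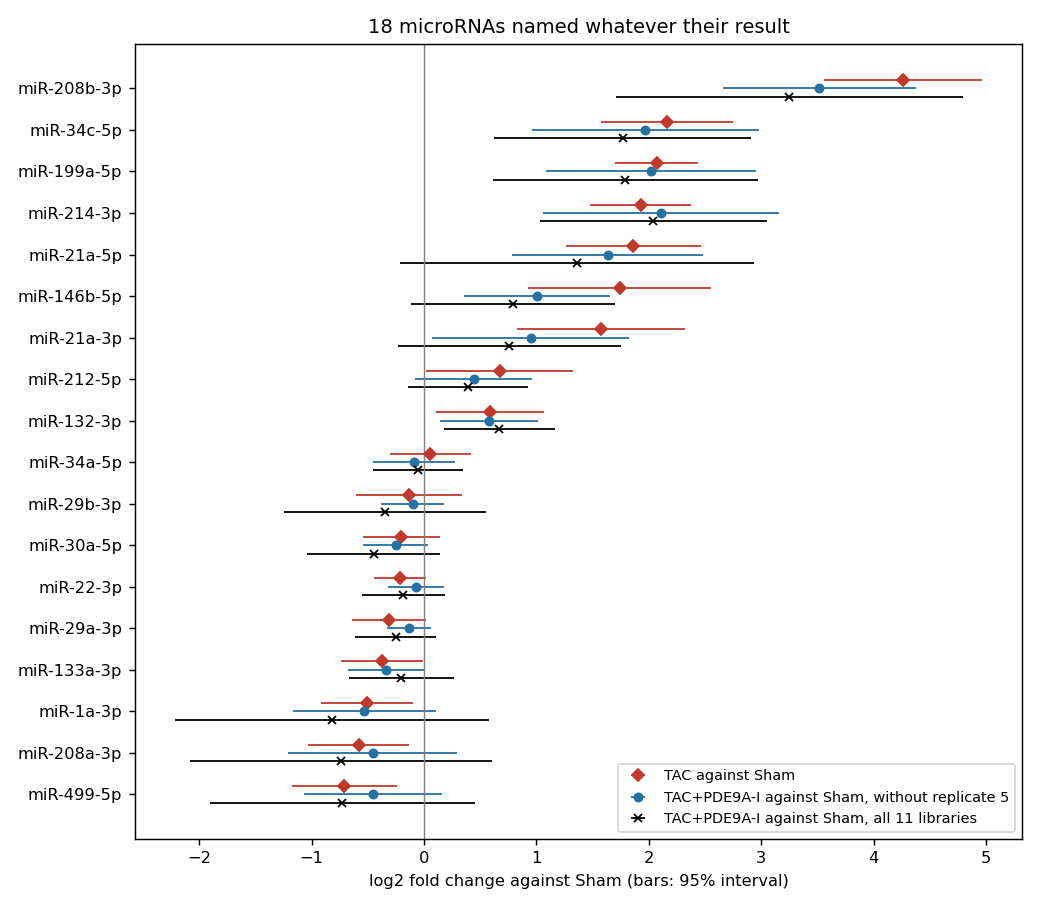
Log2 fold change against Sham with 95% intervals (horizontal axis) for 18 microRNAs of the pressure-loaded heart, in TAC (diamonds) and in TAC+PDE9A-I without replicate 5 (circles) and with it (crosses). miR-208b-3p lies at 4.26 in TAC and at 3.51 under the drug without replicate 5, and the intervals of TAC+PDE9A-I are mostly wider with replicate 5 than without it.

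Of the 18 microRNAs named whatever their result, 5 were called higher under the drug without TAC+PDE9A-I 5 (miR-208b-3p, miR-34c-5p, miR-214-3p, miR-21a-5p and miR-199a-5p) and 0 lower, and 0 were called with it. The abundant muscle microRNAs were not called: miR-133a-3p at -0.34 (-0.68 to -0.00075), miR-1a-3p at -0.53 (-1.17 to 0.10) and miR-22-3p at -0.07 (-0.32 to 0.18). miR-1a-3p was at 121 CPM in TAC+PDE9A-I 5, against 2142 to 7190 CPM in the other 5 and 4605 to 7831 CPM in Sham.

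Of 143 hairpins with both arms tested without TAC+PDE9A-I 5, 2 had both arms called in the same direction, miR-214 (higher) and miR-126b (lower). None had arms called in opposite directions. A single arm was called in 21, and in 18 of these the other arm had the same sign.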

How the data were processed

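Small RNA was sequenced from left ventricle of 21 mice, 1 library per mouse. The deposited values are raw counts per mature microRNA, not normalised by the authors. Per the submitters' processing notes, which assign no roles, the tools were Bowtie 1.1.1, DESeq 1.26.0, cutadapt 1.8 and CASAVA 1.8.4. The genome build used for counting is not given in the sources used here, nor is the microRNA annotation. The file has 25958 lines, 24055 of them blank and 1903 with a microRNA name. Near-identical microRNAs share 12 joined names, and reads of other close relatives or of opposite strands could be assigned to one another by the counting.

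Groups came from the labels. The 11 libraries were fitted alone in R 4.3.3 with edgeR 4.0.16 (filterByExpr by group, TMM scaling, robust quasi-likelihood F test), and again without TAC+PDE9A-I 5, whose total lies under 2000000. TAC against Sham and TAC+PDE9A-I against TAC had fits of their own. Calls were made where the p adjusted by Benjamini-Hochberg over all tested microRNAs was under 0.05, and 95% intervals are those of the fit. SE is the standard error of a log2 fold change. CPM levels share one TMM scale over the Sham, TAC and TAC+PDE9A-I libraries. The median log2 fold change over the 514 tested was 0.03, and 0.14 when total counts replaced TMM. A count of 0 allows up to 3 counts, which is 1.94 CPM in TAC+PDE9A-I 5 and 0.401 CPM in Sham 1. The libraries have no stated molecular identifiers, so this limit covers counting error only. The fitting script was tested on simulated counts.

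The members, the 16 lists and the 18 microRNAs named whatever their result were chosen with earlier results of these data known. Further names were, in each fit against Sham, up to 12 called microRNAs per direction by smallest p at a mean of at least 10 CPM (the 3 of smallest p where fewer than 3 were called) and up to 4 called members per list. The other arm was added only for microRNAs taken by smallest p in the fit of all 11 libraries. miR-7689-3p, miR-3074-5p, miR-15a-5p, miR-351-5p, the partners in the ratios and the further calls listed together were named after their values were seen. Alternatives were DESeq2 1.42.0, limma 3.58.1 (voom with quality weights), other scalings and filters, a replicate block, an ear tag covariate and left-out libraries. Sequences, with coordinates on GRCm38.p6, are from RefSeq, looked up by name (444 of 514 tested matched), and host genes are from GENCODE M21.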

Additional observations from a re-analysis of the deposited data

Results flagged for a closer look

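Among 110 group values of the named microRNAs, 7 had a highest or lowest library set apart from the others of its group by Dixon's test. Chance gives about 5% of groups. TAC+PDE9A-I 5 was the library in 4 of them. It was the highest of its group for miR-486b-3p (469 CPM, next 191), miR-486a-3p (1655 CPM, next 576) and miR-125a-5p (11402 CPM, next 7395), and the lowest for miR-24-1-5p (0, next 10.8 CPM). For miR-486b-3p and miR-486a-3p the ratio of the 3p to the 5p arm in that library (1.919 and 32.68 per 1000) was nevertheless close to that of the other drug-treated libraries, so the 5p entries were high there as well.

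In Sham, library 1 was the highest for miR-30a-5p (50027 CPM, next 40022) and for miR-29b-3p (103 CPM, next 85.1). Without Sham 1, neither microRNA was called. Sham 2 held 8.10 CPM of miR-501-5p, which was at 0 in the other 4 Sham libraries.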

How the results depend on the processing

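In the comparison of all 11 libraries, leaving out 1 library gave 0 to 26 microRNAs higher and 0 to 12 lower (2 and 2 with all). Higher and lower counts were 31 and 15 with DESeq2, 7 and 4 with all groups in one fit and 59 and 35 with limma voom and sample quality weights, which gave TAC+PDE9A-I 5 a weight of 0.0736. Upper-quartile scaling, the replicate block and the range of ear tag numbers as a covariate each gave 0 and 0. Scaling by total counts left 1 lower, and a minimum mean of 10 CPM left 1 higher.

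Without TAC+PDE9A-I 5 (26 higher, 12 lower), leaving out a further library gave 2 to 67 and 6 to 25. DESeq2 gave 51 and 40, voom with quality weights 68 and 37, all groups in one fit 10 and 4, the ear tag covariate 0 and 0, and the replicate block 9 and 6. Without a filter 13 were higher, and at a minimum mean of 10 CPM 23 were lower. Of the 38 calls, 38 were kept with total counts, 37 with DESeq2, 33 with upper-quartile scaling, 14 with the replicate block and 0 with the ear tag covariate. Ear tags in the 500s belong only to TAC+PDE9A-I here, and ear tags are not labelled as batches. All 38 kept their sign in every fit that left out a further library. Within ear tags of the 100s all 38 had that sign, and within the 600s 34 had it, each range with 1 TAC+PDE9A-I library. The difference in mean log2 CPM from Sham in the 100s and the 600s was 2.04 and 0.04 for miR-214-3p. It was 2.18 and 0.22 for miR-199a-5p, and 1.70 and -0.10 for miR-21a-5p.

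TAC against Sham gave 11 to 26 lower when 1 library was left out (11 without Sham 3), 50 with DESeq2 and 11 with the replicate block. TAC+PDE9A-I against TAC gave 1 lower with DESeq2. The difference in mean total count from Sham (-194731, exact permutation p = 0.872) reversed to 569222 without TAC+PDE9A-I 5 (exact permutation p = 0.452). miR-21a-3p reversed to -0.038 with the ear tag covariate. miR-34a-5p (-0.053) ranged from -0.22 (without Sham 4) to 0.038 (without Sham 1) when 1 library was left out, with 0.014 without Sham 2 and without TAC+PDE9A-I 4, and reversed to 0.070 with total counts and to 0.030 with upper-quartile scaling. The causes were not tested. Other fold changes of the named microRNAs kept their direction in these alternative fits.

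Same-numbered Sham and TAC+PDE9A-I libraries did not deviate together (correlations -0.02, -0.24, 0.05, -0.08 and -0.15, none with its own number best), so the replicate block joins samples that share only a number. TAC+PDE9A-I 5 limits low microRNAs most, since 3 counts are 1.94 CPM there.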
